A study of Homo sapiens with 60 samples.

Results

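The cytosolic ribosomal protein genes encode the proteins of the ribosome that translates nuclear mRNAs. They were chosen by symbol: protein-coding genes named RPL or RPS with a number, with RPSA and RPLP0, RPLP1 and RPLP2 added and the RPS6 kinases left out. The rule found 86 of 60675 genes. These were 43 core genes of the large (60S) subunit, 31 core genes of the small (40S) subunit, 3 genes of the stalk of the large subunit and 9 paralogs of core genes. Of the 86, 83 passed the filter on low counts and were tested.

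A ribosome holds a single copy of most of these proteins, and cells make them in balance. Their mRNAs are short and abundant and carry a run of pyrimidines at the very 5′ end, the TOP motif (terminal oligopyrimidine). Through this motif the kinase mTOR, which acts downstream of phosphoinositide 3-kinase (PI3K), controls their translation, and LARP1 binds and stabilises them. Some members also act outside the ribosome: RPL5 and RPL11 bind MDM2, the ubiquitin ligase of p53.

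The cells were SW1783, an established human astrocytoma line, sequenced 24 h after treatment in 20 groups of 3 libraries. Hot water extracts of fresh ginger (Zingiberis Rhizoma Recens), dried ginger (Zingiberis Rhizoma), Pinelliae Tuber and Zizyphi Fructus (jujube) were used at 20, 100 and 500 µg/mL. Scutellariae Radix was used at 16.4, 82 and 410 µg/mL and Coptidis Rhizoma at 0.8, 4 and 20 µg/mL, doses set from the concentration that inhibits growth by 20%. Wortmannin, an inhibitor of PI3K, was given at 10 µM as a positive control, and the vehicle was labelled 0.1% DMSO, where the series design gives 2%. Cells of all groups had been kept in L-15 medium (Leibovitz) with 10% serum, and no label says how much DMSO the treated cells received. No label says whether the 3 libraries of a group came from separate cultures, so p-values may measure technical spread. Sample codes begin with 1 for wortmannin and, after a letter A, for the vehicle, and with another number for each of 3 pairs of extracts (both gingers, Pinellia with Scutellaria, Coptis with jujube). No label says what the codes mark. An extract's difference from the vehicle and one between the code numbers cannot be told apart, whereas the doses of an extract share their code.

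Library totals were 20.2 to 32.8 M counts. Levels of single genes are given as CPM, which are counts scaled to a common library size. Library sizes were adjusted by TMM, which assumes that most genes do not change. The TMM factors were 0.80, 0.82 and 0.83 in the high-dose Coptis libraries and 0.92 to 0.93 at its medium dose, against 1.01 to 1.02 in vehicle libraries. Genes were called changed at an adjusted p under 0.05 in edgeR's quasi-likelihood F test over 17569 genes. Fold changes are log2 values with their standard error (SE). Of 8 astroglial and glioma markers, VIM was at 3785 to 6875 CPM of library totals, CD44 at 1986 to 3032, SLC1A3 at 3.05 to 50.1 and NES at 1.33 to 11.9 CPM. GFAP stayed at or under 0.279 CPM, S100B at or under 0.346, ALDH1L1 at or under 0.120 and AQP4 at or under 0.0831 CPM. Of 11 markers of other cell types, SYT1 of neurons was at 24.4 to 61.9 CPM, PTPRC of leukocytes at 4.88 to 16.9 and MBP of oligodendrocytes at 5.48 to 10.7 CPM, with no library at 0. The endothelial PECAM1 reached 1.35 CPM, and CD14, RBFOX3, EPCAM, CDH1, CDH5 and CD3E stayed at or under 0.550 CPM. A count of 0 allows up to 0.091 to 0.149 CPM, depending on the library. AQP4 was never above that range, and GFAP, which defines astrocytes, was near it. In bulk RNA, fewer cells and less RNA per cell cannot be told apart.

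In vehicle cells the members spanned a wide range of levels per length. RPS2, a 40S protein, averaged 1748 ± 98.2 CPM per kb of its median protein-coding transcript (SD, n = 3). RPL10 of the 60S subunit had 1645.6 ± 21.2, and RPL39, which lines the exit tunnel of the 60S subunit, had 1377 ± 16.9. These levels depend on the annotated transcript lengths. Among core members the lowest were RPS29 at 118.5 ± 16.5 and RPS26 at 147.6 ± 7.50 CPM per kb, both 40S proteins. Some paralogs lay lower still: RPL39L at 13.2 ± 0.665, RPL22L1 at 35.4 ± 0.743, RPL26L1 at 39.9 ± 1.90, RPL7L1 at 66.0 ± 1.03 and RPS27L at 85.9 ± 4.87 CPM per kb. The muscle paralog RPL3L had 259 counts over all 60 libraries and at most 12 in any, and the testis paralog RPL10L had 7 counts in all. With the Y-linked RPS4Y2, which had 0, these were the 3 members not tested. RSEM divides reads that fit several places, and annotated pseudogenes of the members held 1.76% to 2.29% as many counts as the members in each library.

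The sequence around the start site is shown because it carries the feature that defines these mRNAs. RefSeq start sites on GRCh38.p14 were found for 69 of the 86 members. A C followed by 4 bases that are each C or T stood exactly at an annotated start of 48 of the 69, which is 69.6%, against 5.14% of all 27305 genes in the table. Within 5 bases of the start it was found in 79.7% of these members and 25.2% of all genes, on the transcript strand. The windows run from 15 bases before to 15 bases from the start, 5′ to 3′, and capitals mark, where a C and 4 pyrimidines begin within 5 bases of the start, that C and all C or T bases that follow it.
RPL3: gtaaggccgaccggCCTCTaccggcgggat
RPL12: ccgcgcgatttccggCCTCTCggctttcgg
RPL10A: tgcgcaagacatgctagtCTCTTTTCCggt
RPS6: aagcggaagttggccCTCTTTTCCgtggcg
RPL22L1: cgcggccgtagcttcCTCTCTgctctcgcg
RPS26: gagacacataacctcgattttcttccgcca
RPL7L1: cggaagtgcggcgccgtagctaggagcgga
RPS27L: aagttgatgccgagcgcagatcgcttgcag

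These members are shown since the results below turn on them. RPL3 (chr22:39319609-39319638, minus strand), RPL12 (chr9:127451392-127451421, minus), RPL10A (chr6:35468386-35468415, plus), RPS6 (chr9:19380222-19380251, minus) and RPL22L1 (chr3:170870181-170870210, minus) hold the run. RPS26 (chr12:56041903-56041932, plus), RPL7L1 (chr6:42879601-42879630, plus) and RPS27L (chr15:63157463-63157492, minus) have no C and 4 pyrimidines that begin within 5 bases of the annotated start. RPS26 does hold a run of 9 pyrimidines, ttttcttcc, that opens with T 2 bases after the start, and its first C with 4 pyrimidines stands 6 bases after it. Each window lies in the promoter and the first exon. In the 300 bases from 250 before to 50 after a start, the letters CCGGAA, the core of ETS factor sites, were found on either strand in 58.0% of these members and 20.1% of all genes. TATAAA was found in 10.1% of them and 14.0% of all genes. A match is a description of letters and not a site.

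The high dose of Coptis raised nearly all members together. The 86 genes held 4.73%, 4.71% and 4.84% of all library counts at 20 µg/mL, against 3.77%, 3.77% and 3.80% in vehicle libraries. The groups did not overlap, and the share was 1.26-fold that of the vehicle. In every other group it lay between 3.42% and 4.19%.

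**Figure D1:**
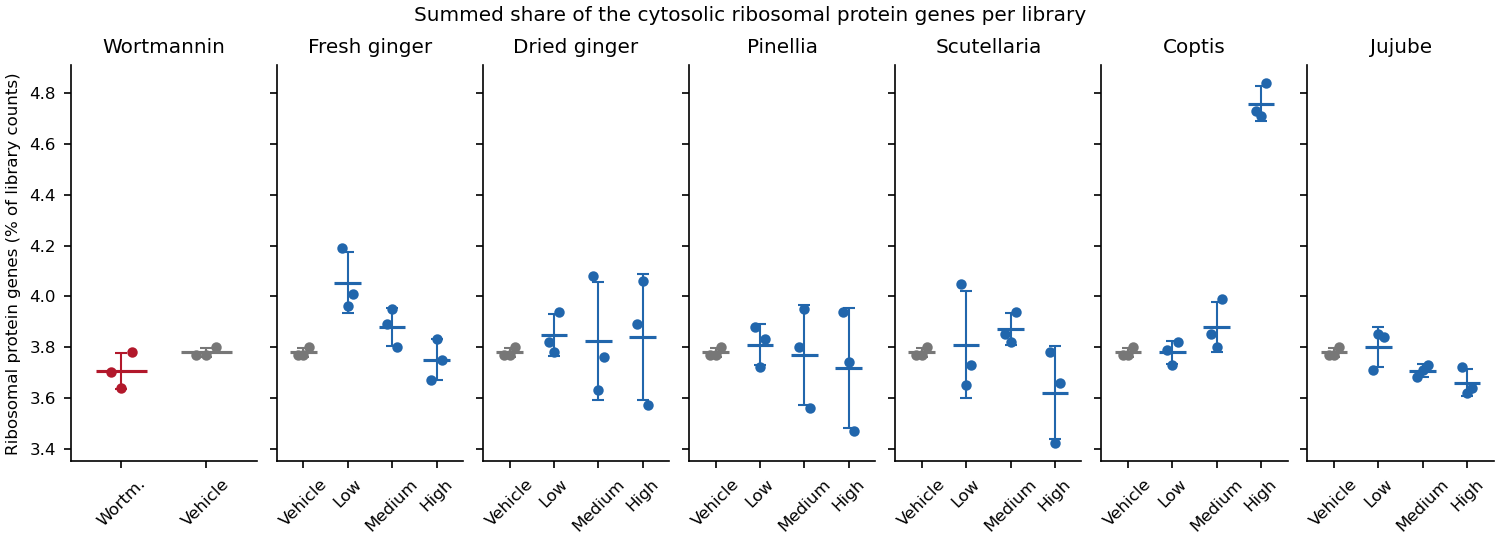
Share of all counts of a library held by the 86 ribosomal protein genes (y axis, percent; it does not start at 0), by group (x axis; doses low to high with the same 3 vehicle libraries at the left of each extract). Points are libraries, bars are means with SD (n = 3). High-dose Coptis stands at 4.71% to 4.84%, above all other libraries.

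Of the 83 tested members, 81 rose and 2 fell against the vehicle under high-dose Coptis, where 37.2% of all genes were called higher and 37.9% lower. The members' median fold was 1.56 (log2 0.64), against a median of -0.03 over all genes. All 83 had libraries that did not overlap between the groups, as did 76.2% of all tested genes. All 43 core genes of the 60S subunit rose (median log2 0.68), as did 30 of 31 of the 40S subunit (median 0.64) and all 3 stalk genes. The quartiles of the members lay 0.16 apart on the log2 scale, against 1.16 for all genes, so the members lay closer to each other than genes in general. They did so under low-dose Coptis too, at 0.05 against 0.14, where no member was called. Members are abundant, and their spread was not compared with that of other abundant genes.

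The members with the largest rises were RPL22L1, RPL3 and RPL10A. RPL3, a 60S protein near the centre that forms peptide bonds, had 1107.3, 1173.9 and 1186.5 CPM under high-dose Coptis, against 562.5, 543.5 and 554.6 CPM in vehicle cells. Its log2 change was 1.06 ± 0.04 (SE, edgeR adjusted p 4.1e-32), a 2.09-fold rise. RPL10A, which forms the L1 stalk where the empty tRNA leaves, averaged 505.7 ± 9.85 CPM under high-dose Coptis and 263.8 ± 5.02 CPM in vehicle cells (SD, n = 3 each). Its log2 change was 0.94 ± 0.04 (edgeR adjusted p 2.2e-28), and it was higher in 3 of 3 libraries.

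Members of known special roles rose by similar amounts. RPS6, the 40S protein phosphorylated by S6 kinase, had 1325.5, 1411.0 and 1394.8 CPM in treated cells and 898.9, 894.2 and 911.3 CPM in vehicle cells. RPL5 and RPL11, which carry 5S rRNA into the ribosome, rose by 0.62 ± 0.04 and 0.54 ± 0.06 on the log2 scale. Among the stalk proteins, which recruit elongation factors, RPLP0 rose by 0.55 ± 0.04, RPLP1 by 0.69 ± 0.08 and RPLP2 by 0.66 ± 0.07. RPS19 and RPS14, needed to build the 40S subunit, rose by 0.65 ± 0.06 and 0.63 ± 0.05, and RPSA, which joins the 40S subunit late, by 0.56 ± 0.04. RPS4X rose by 0.50 ± 0.04, RPS27 by 0.69 ± 0.06, RPL22 by 0.60 ± 0.05 and RPL39 by 0.89 ± 0.11. The largest SE of any member was that of RPS29, 0.17, and the smallest rise was that of RPS15, 0.38 ± 0.06.

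**Figure D2:**
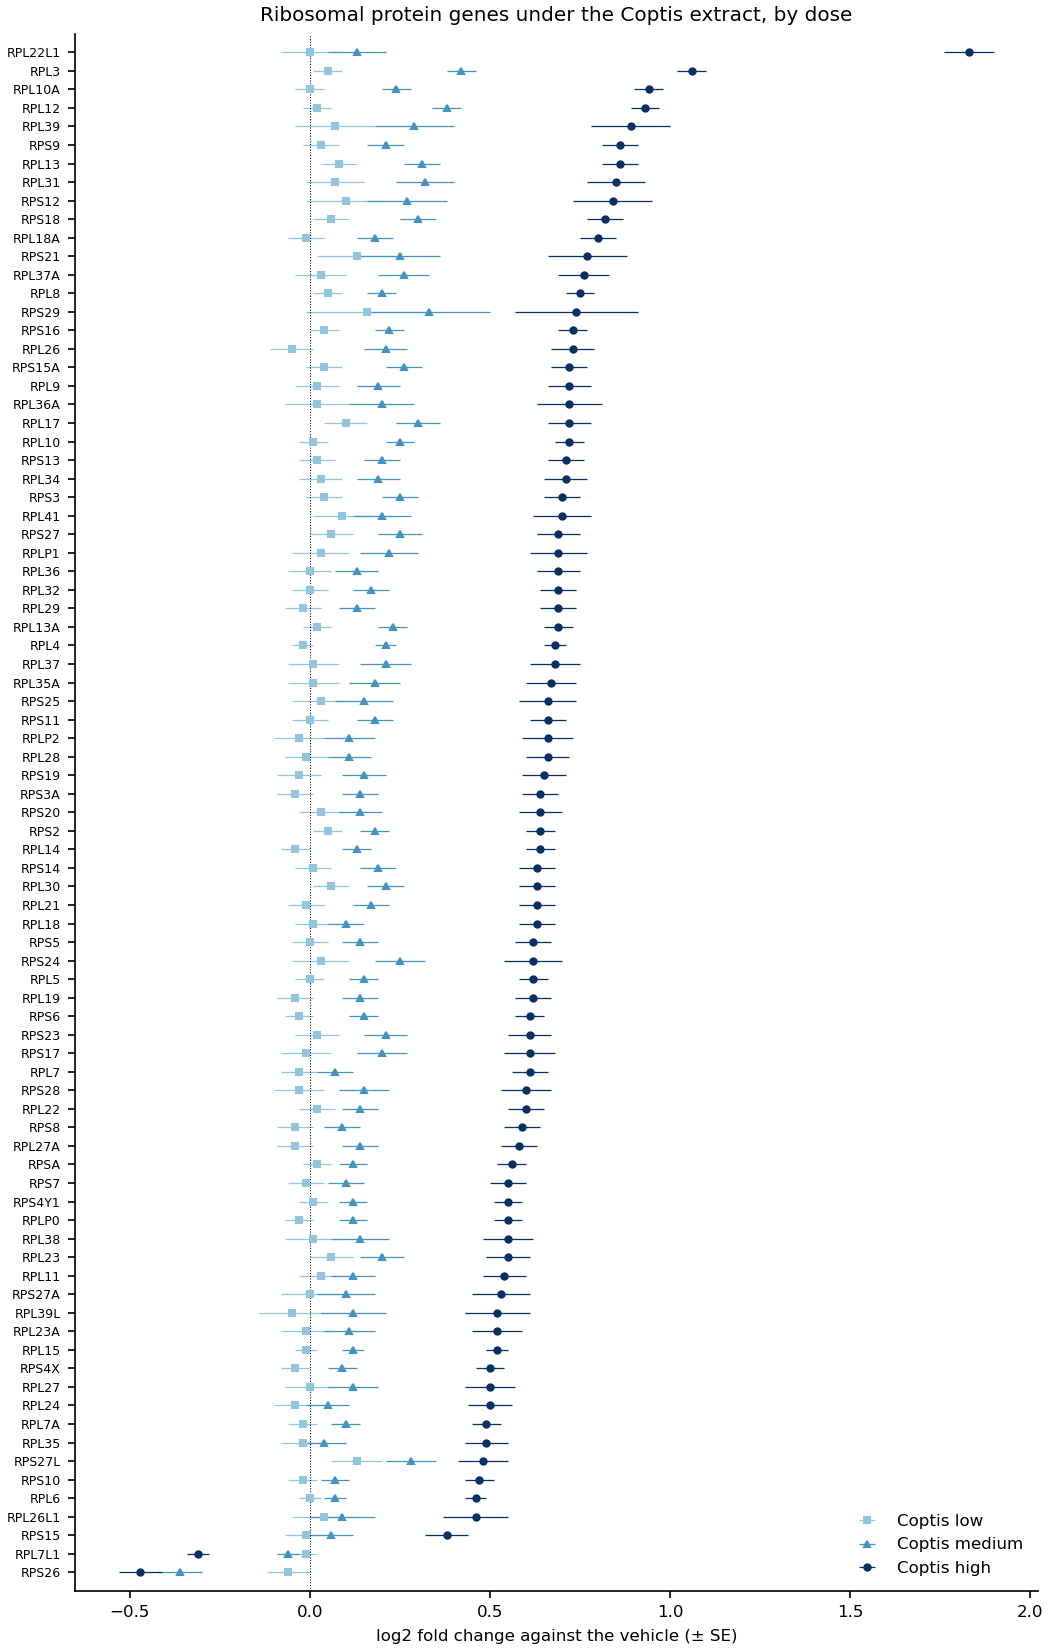
Log2 fold change against the vehicle (x axis, with SE) of each of the 83 tested ribosomal protein genes (y axis, ordered by the high dose) at 0.8, 4 and 20 µg/mL Coptis. High-dose points of 81 members lie right of 0, from 0.38 to 1.83, and those of RPS26 and RPL7L1 left of it.

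The size of the rise depended on the scaling. On library totals without TMM the members' median was 0.33 and that of all genes -0.35, with 79 members called higher and 2 lower. The members' median stood 0.67 above that of all genes on either scale. Scaling shifts all genes of a library alike, so this match was set in advance and is no check. RPL3 rose by 0.75 on library totals. Abundant genes in general were also higher: of 404 other genes with a mean of at least 318.9 CPM, the lower quartile of the members, 66.3% were called higher and 25.2% lower, with a median of 0.26. Genes of the mitochondrial genome took 6.80%, 6.30% and 5.90% of counts under high-dose Coptis, against 5.18%, 4.97% and 5.34% in vehicle libraries. The share of the members without these counts was 1.27-fold that of the vehicle.

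Marker genes also differed under Coptis. The 8 astroglial and glioma markers summed to 8765.0, 9115.9 and 8886.2 CPM of library totals at the high dose, against 6977.4, 7148.2 and 7333.3 CPM in vehicle libraries. Of the 4 that were tested VIM rose by 0.95 ± 0.03, SLC1A3 fell by 3.03 ± 0.07 and NES by 2.47 ± 0.11, and CD44 was at 0.00 ± 0.02, with a median of -1.24. At the medium dose the sums were 6554.5, 6397.7 and 6643.0 CPM, and VIM rose while SLC1A3, NES and CD44 fell (median -0.63). On library totals 1 of the 4 rose and 3 fell at the high dose, and none rose and 3 fell at the medium dose. The 11 markers of other cell types summed to 73.2, 74.0 and 76.3 CPM at the high dose, against 55.4, 51.4 and 52.6 CPM in vehicle libraries. Of the 6 tested, SYT1 and MBP rose and PTPRC, CD14 and PECAM1 fell. The part of these differences in the members' values was not tested.

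Members have short transcripts, and high-dose Coptis libraries had more counts for genes with short transcripts, so length was checked. The median protein-coding transcript was 692 bases long for the members and 1861 for tested genes with a length, which were 77.9% of all. The slope of log2 level on log10 transcript length over other genes was -0.19, -0.17 and -0.17 in high-dose Coptis libraries and 0.06, 0.03 and 0.03 in vehicle libraries. Taking out this trend left the calls at 81 higher and 2 lower and gave a median of 0.55. With the length of all exons of a gene, 2944 bases for the members and 4335 for tested genes, the median was 0.65. Slopes on exon length were -0.05, -0.00 and -0.02 in high-dose Coptis libraries and 0.06, 0.01 and 0.02 in vehicle libraries. Across the 83 members, which share their libraries, the high-dose Coptis change and the log of transcript length had a Pearson correlation of -0.41 and a Spearman correlation of -0.23, and RPL7L1, at 3769 bases, had the longest transcript.

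**Figure D3:**
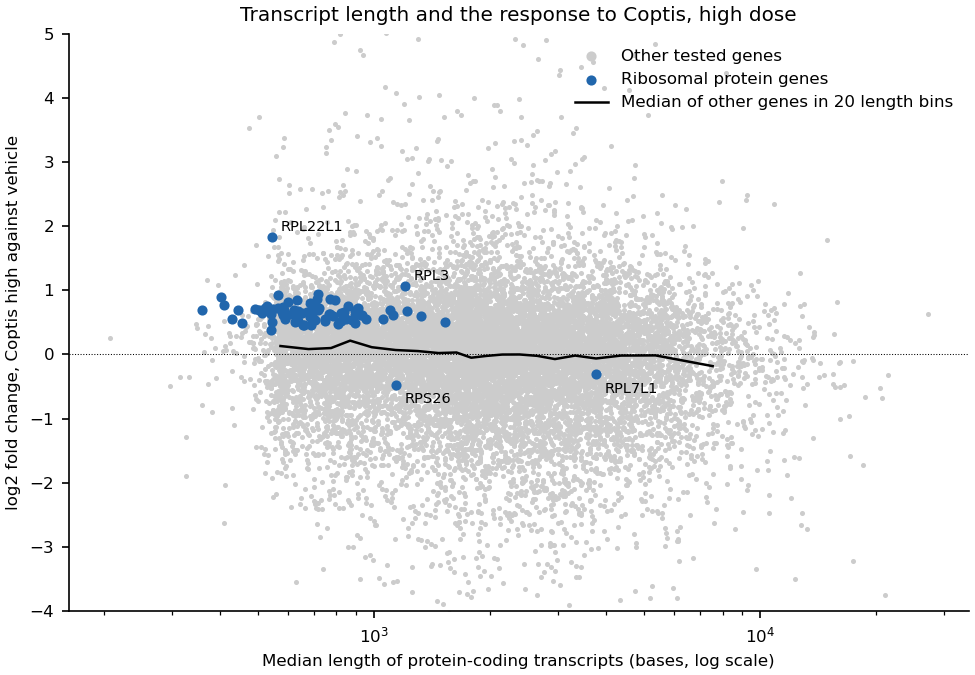
Log2 fold change under high-dose Coptis against the vehicle (y axis) by median length of protein-coding transcripts (x axis, bases, log scale) for ribosomal protein genes (blue) and other tested genes (grey, with the median in 20 length bins as a line). The 45 genes beyond -4 or 5 are not drawn. RPS26 and RPL7L1 are the 2 members below 0.

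At the medium dose of Coptis, 4 µg/mL, 54 members rose and 1 fell, where 21.0% of all genes were called higher and 20.2% lower. The members' median log2 change was 0.17, against 0.01 over all genes and 0.01 over the 404 abundant genes. Of the abundant genes 37.9% were called higher and 33.4% lower. RPL3 rose by 0.42 ± 0.04 (edgeR adjusted p 3.5e-14), RPL12, at the base of the stalk, by 0.38 ± 0.04, and RPL31, near the exit tunnel, by 0.32 ± 0.08. On library totals only 8 members were called higher and 2 lower, with a median of 0.03 against -0.13 over all genes, so most of these calls rested on TMM. The summed share of the members was 3.85%, 3.80% and 3.99% at the medium dose, against 3.77%, 3.77% and 3.80% in vehicle libraries. Mitochondrial genes held 11.5%, 11.2% and 10.5% of counts at this dose and 5.18%, 4.97% and 5.34% in vehicle libraries. Without these counts the members' share was 4.35%, 4.28% and 4.46% at the medium dose, against 3.98%, 3.97% and 4.02% in vehicle libraries. That is 1.09-fold, where the share of all counts was 1.03-fold.

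At the low dose of Coptis, 0.8 µg/mL, no member was called, where 0.683% of all genes were called either way, and the median was 0.01. None had an unadjusted p under 0.05 in edgeR, and DESeq2 called none. Libraries rose without overlap from low to medium to high dose for 72 of the 83 members, against 14.7% of all genes. They fell in that way for 1 member, RPS26, against 13.4% of all genes. Members share their libraries, so these orders are not independent. Between high and low dose, 81 members rose and 2 fell, where 36.9% of all genes were called higher and 38.9% lower, with a median of 0.64. RPL22L1, RPL3 and RPL10A again rose most, and RPS26 and RPL7L1 fell.

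**Figure D4:**
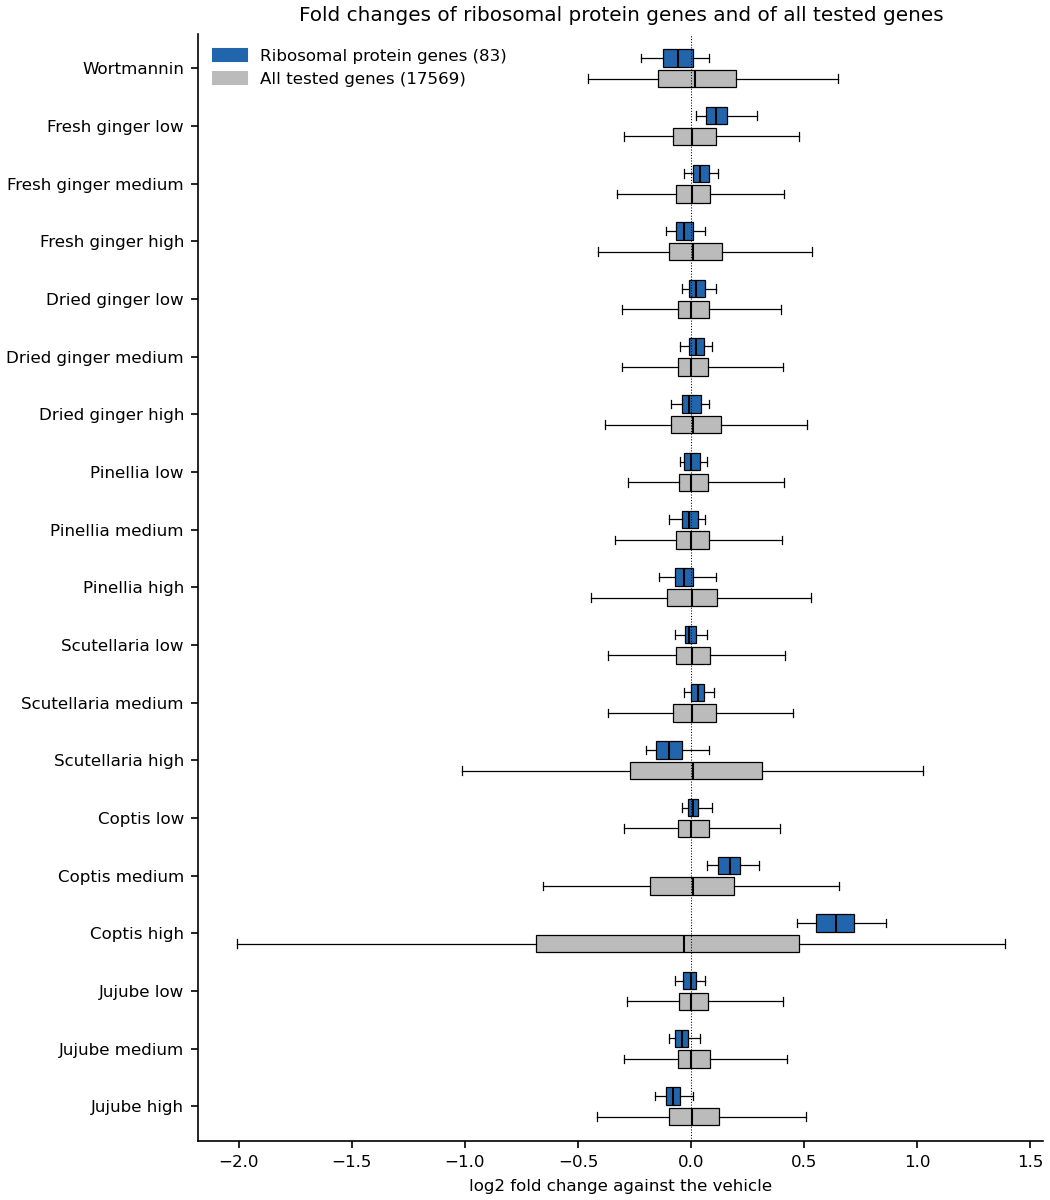
Log2 fold change against the vehicle (x axis) of the 83 tested ribosomal protein genes (blue) and of all 17569 tested genes (grey) for each treatment (y axis). Boxes span the quartiles with the median, and whiskers run from the 5th to the 95th percentile. The members' box leaves 0 by most under high-dose Coptis, at a median of 0.64.

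RPS26, at the exit channel of the mRNA in the 40S subunit, went against the other core members. It lies at chr12:56041351-56044697 on the plus strand (GRCh38, GENCODE v29). High-dose Coptis cells had 120.8, 128.9 and 114.5 CPM and vehicle cells 166.5, 160.7 and 177.5 CPM, a log2 change of -0.47 ± 0.06 (edgeR adjusted p 2.2e-10). It also fell under medium-dose Coptis (-0.36 ± 0.06), high-dose Scutellaria (-0.59 ± 0.06), wortmannin (-0.45 ± 0.06), high-dose fresh ginger (-0.23 ± 0.06) and high-dose dried ginger (-0.19 ± 0.06). These comparisons share their vehicle libraries. Under high-dose Pinellia it had 207.5, 172.3 and 172.5 CPM and under high-dose jujube 157.5, 148.3 and 160.2 CPM, and neither passed the test.
Against their own low doses RPS26 fell under Scutellaria (-0.56 ± 0.06), Coptis (-0.41 ± 0.06), fresh ginger (-0.30 ± 0.06) and dried ginger (-0.19 ± 0.06). The dried ginger calls were lost without replicate 3 of the high dose, and also without vehicle replicate 3 or low-dose replicate 2 in the comparison each belongs to. The 36 annotated pseudogenes of RPS26 held 0.24% to 1.5% of the counts of the family in any library.

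RPL7L1, a homolog of the yeast assembly factor Rlp7, was the other member that fell under Coptis. It lies at chr6:42879618-42889925 on the plus strand. It had 204.9, 198.6 and 198.2 CPM at the high dose of Coptis, against 252.9, 245.2 and 248.6 CPM in vehicle cells (log2 -0.31 ± 0.03, edgeR adjusted p 4.6e-13). It fell by a similar amount under wortmannin (-0.23 ± 0.03) and high-dose Scutellaria (-0.22 ± 0.03), and under high-dose fresh ginger (-0.16 ± 0.03). On library totals the log2 changes under high-dose Coptis were -0.79 for RPS26 and -0.63 for RPL7L1.

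RPL22L1, the paralog of RPL22, had the largest rise of any member under high-dose Coptis. It lies at chr3:170864875-170870483 on the minus strand. It had 72.3, 68.6 and 65.1 CPM under high-dose Coptis, against 19.2, 19.0 and 19.8 CPM in vehicle cells, a log2 rise of 1.83 ± 0.07 (edgeR adjusted p 1.5e-30). It held 14.4% ± 0.618 of the summed CPM of RPL22 and RPL22L1 under high-dose Coptis and 6.69% ± 0.134 in vehicle cells (SD, n = 3 each). High-dose Scutellaria cells had 31.6, 26.5 and 29.5 CPM (log2 0.60 ± 0.07), and wortmannin cells 12.7, 10.6 and 12.4 CPM (-0.69 ± 0.08). The libraries of each of these 3 groups did not overlap those of the vehicle, and under medium-dose Coptis the gene did not pass the test (0.13 ± 0.08).

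**Figure D5:**
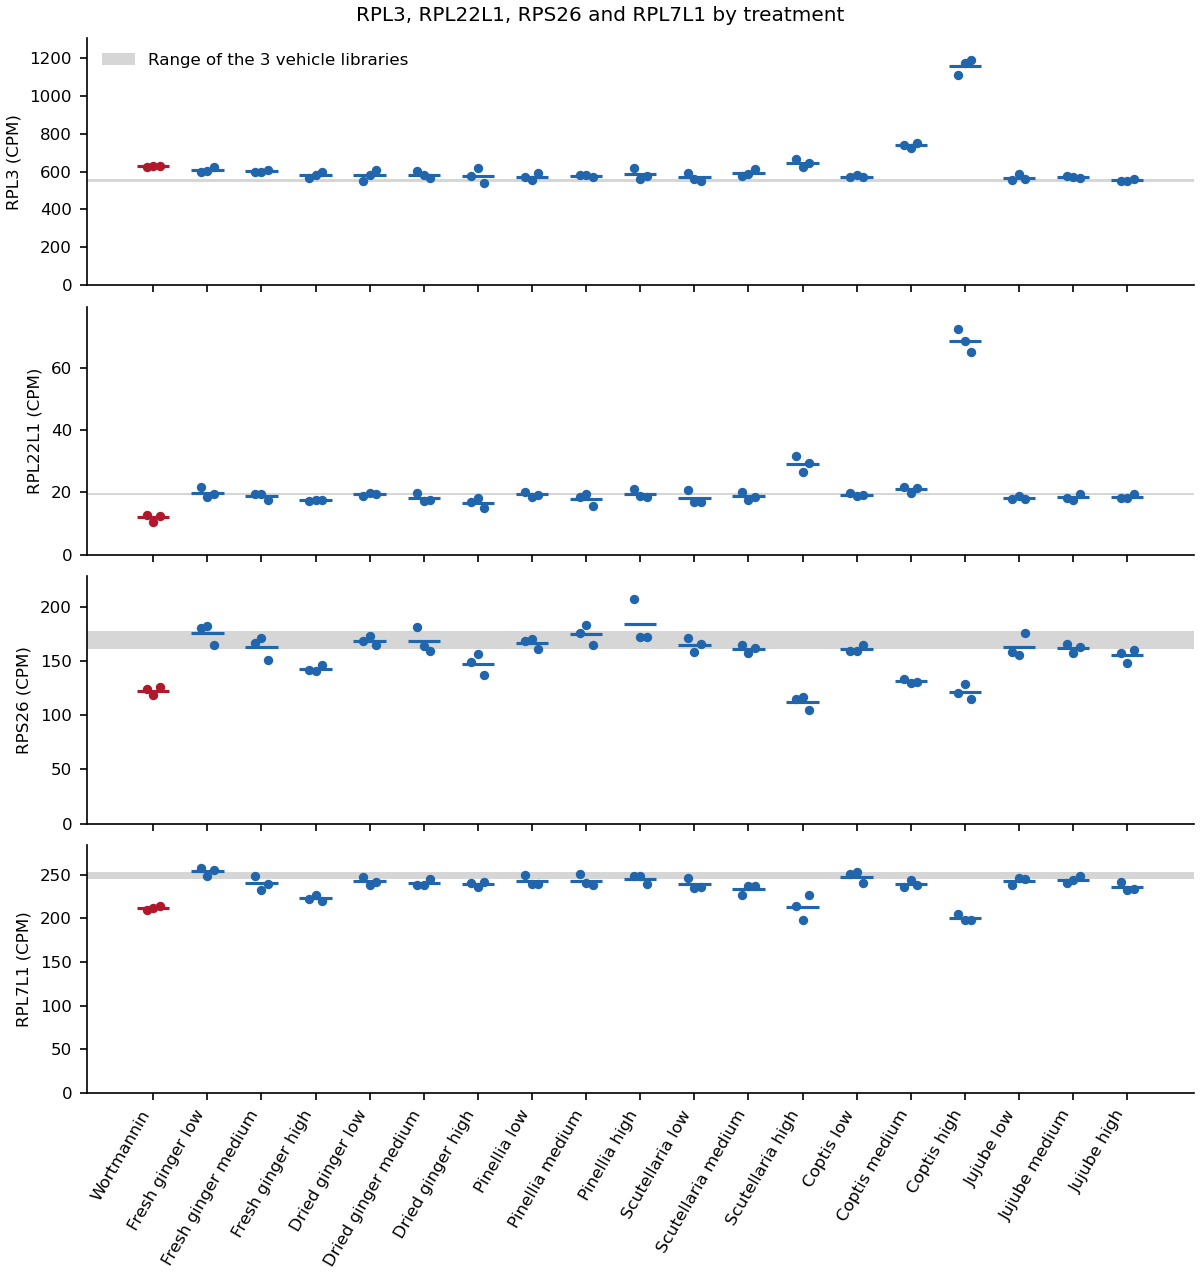
CPM (y axes, from 0) of RPL3, RPL22L1, RPS26 and RPL7L1 by treatment (x axis, doses low to high within each extract). Points are libraries, bars are means and the grey band is the range of the 3 vehicle libraries. All 3 libraries of RPS26 stand below the band under wortmannin, high-dose Scutellaria, both gingers and jujube at the high dose, and medium- and high-dose Coptis.

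High-dose Scutellaria, 410 µg/mL, lowered more members than it raised. Of the 83, 29 fell and 4 rose, where 28.5% of all genes were called lower and 30.3% higher. The share called lower, 34.9%, was near that of all genes and below the 60.4% of the 404 abundant genes. The share called higher, 4.82%, was below that of all genes and the 20.5% of the abundant genes. The median was -0.10, against 0.01 over all genes and -0.15 over the 404 abundant genes. The 4 that rose were RPL22L1, RPS27L, RPL3 and RPL10A. RPS27L, the paralog of RPS27 and a target of p53, averaged 82.3 ± 8.10 CPM in treated cells and 69.4 ± 3.94 CPM in vehicle cells (log2 0.25 ± 0.07). RPL3 rose by 0.22 ± 0.04. Besides RPS26, the largest falls were RPL24 (-0.31 ± 0.06) and RPL7A (-0.31 ± 0.04), both 60S proteins.
RPL7A had 611.5, 570.2 and 594.7 CPM in treated cells, against 739.4, 732.5 and 728.3 CPM in vehicle cells. Replicate 2 of high-dose Scutellaria had the lowest share of the members of all 60 libraries, 3.42%, against 3.78% and 3.66% in the other 2. In it RPL39 had 395.7 CPM, against 587.8 and 570.4 CPM. Without replicate 2, 11 members fell and 7 rose and the median was -0.05.

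At the medium and low doses of Scutellaria no member was called, where 8.45% and 2.72% of all genes were called either way. At an unadjusted p under 0.05 edgeR gave 6 members at the medium and 1 at the low dose, and DESeq2 called 1 and 0. Between its high and low dose 28 fell and 5 rose, where 28.9% of all genes were called lower and 29.2% higher. Of the 404 abundant genes 59.7% were called lower and 21.8% higher. Without high-dose replicate 2 the members' counts were 11 and 5, and without low-dose replicate 1 they were 12 and 5. RPL22L1 (0.69 ± 0.07), RPS26 (-0.56 ± 0.06) and RPL7A (-0.36 ± 0.04) kept their calls when any library was left out.

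Wortmannin lowered 19 members and raised 4, where 19.2% of all genes were called lower and 17.3% higher. The share called lower, 22.9%, was near that of all genes and below the 42.1% of the 404 abundant genes. The share called higher, 4.82%, was below that of all genes and the 28.5% of the abundant genes. The members' median was -0.06, against 0.02 over all genes and -0.04 over the abundant genes. The largest falls were in the paralogs RPL22L1 and RPL39L and in RPS26. RPL39L, a paralog of RPL39 that is rich in testis, had 6.67, 6.81 and 7.22 CPM under wortmannin, against 10.4, 9.53 and 9.65 CPM in vehicle cells (log2 -0.51 ± 0.09, edgeR adjusted p 1.3e-05).
RPS6 fell by 0.13 ± 0.04 on the log2 scale and RPSA by 0.16 ± 0.04. RPL3 rose by 0.18 ± 0.04, RPS27L by 0.19 ± 0.07 and RPL13 of the 60S subunit by 0.16 ± 0.05. RPL13 and RPS27L each lost their call without replicate 1 or replicate 3 of wortmannin, and also without a vehicle library, replicate 1 for RPL13 and replicate 2 for RPS27L. Without wortmannin replicate 1, 12 members fell and 2 rose, and without replicate 2, 11 fell and 3 rose. For RPL5 (-0.08 ± 0.04), RPL11 (-0.15 ± 0.06), RPLP0 (0.02 ± 0.04) and RPS19 (-0.04 ± 0.06) no change passed the test.

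The low dose of fresh ginger, 20 µg/mL, raised 19 members and lowered none, where 3.56% of all genes were called higher and 4.38% lower. The median was 0.11, against 0.00 over all genes and 0.00 over the 404 abundant genes. Of the abundant genes 11.1% were called higher and 12.9% lower. Of the members' values 80 of 83 were above 0, but these values share their libraries and are not independent. The summed share was 4.19%, 3.96% and 4.01%, all above the 3.77% to 3.80% of vehicle libraries. Among members whose libraries did not overlap, the largest rises were in RPS29 and RPS12 of the 40S subunit and RPL36A of the 60S subunit. RPS29 had 138.9, 78.3 and 101.4 CPM, against 72.9, 76.1 and 58.0 CPM in vehicle cells (log2 0.62 ± 0.17, edgeR adjusted p 0.015).
RPL36A had 508.8, 360.9 and 434.3 CPM, against 341.7, 347.4 and 324.2 CPM in vehicle cells (0.36 ± 0.09), and RPS12 rose by 0.37 ± 0.11. Replicate 1 was the highest of the 3 for each of these genes, and all 3 lost their call without it. RPS29 also lost it without vehicle replicate 3, and RPS12 without any single vehicle library, without low-dose replicate 3 or once the exon-length trend was removed. The slope of replicate 1, over other genes, of log2 level on log10 exon length was -0.13, the lowest of all libraries, against -0.05 and -0.06 in the other low-dose libraries and 0.01 to 0.06 in vehicle libraries. Without replicate 1 the count was 5, and without vehicle replicates 1 or 2 it was 9 or 10. With the trend in exon or transcript length taken out it was 15 each time. Annotated pseudogenes held 10% to 17% of the counts of RPL36A and its copies, so its level is uncertain.

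At the medium dose of fresh ginger no member was called, where 1.50% of all genes were called either way, and the median was 0.04. At an unadjusted p under 0.05 edgeR gave 5 members, and DESeq2 called 1. At the high dose 2 fell, RPS26 and RPL7L1, where 10.2% of all genes were called lower and 9.12% higher. Means fell from low to medium to high dose for 74 of the 83 members, against 24.9% of all genes. Libraries fell in that order without overlap for 8 members, against 2.00% of all genes. Members share their libraries, so these orders are not independent. Between high and low dose 11.9% of all genes were called lower and 11.4% higher. Of the 404 abundant genes 36.1% were called lower and 17.8% higher, with a median of -0.04. In this comparison 40 members, 48.2%, fell and none rose, with a median of -0.14. Among those whose libraries did not overlap between the doses, RPL41 of the 60S subunit had 475.3, 405.3 and 474.3 CPM at the high dose, against 659.7, 537.7 and 597.0 CPM at the low dose (log2 -0.41 ± 0.08). RPL36A fell by 0.34 ± 0.08, a call lost without low-dose replicate 1, and RPL27 by 0.31 ± 0.07. Without low-dose replicate 1, 15 members fell, and with the transcript length trend taken out, 35.

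Dried ginger and Pinellia moved few members. Dried ginger lowered RPS26 alone at the high dose, where 9.20% of all genes were called lower and 7.76% higher, and no member at the medium and low doses, where 0.700% and 0.0512% of all genes were called. At an unadjusted p under 0.05 edgeR gave 1 member at the medium and 3 at the low dose, and DESeq2 called none. Between its high and low dose RPS26 fell, where 7.13% were called lower and 6.07% higher. High-dose Pinellia raised RPL30, RPS6 and RPS2 and lowered none, where 9.30% of all genes were called higher and 8.73% lower. RPL30 of the 60S subunit averaged 476.6 ± 24.6 CPM in treated cells and 431.0 ± 14.3 CPM in vehicle cells (0.15 ± 0.05). RPS6 averaged 974.8 ± 37.9 CPM in treated cells and 901.5 ± 8.83 CPM in vehicle cells (0.11 ± 0.04).
These Pinellia calls were not stable: without Pinellia replicate 1, 7 members fell and none rose, and without vehicle replicate 1 none was called. At its medium and low doses no member was called, where 1.41% and 0.142% of all genes were, nor between high and low dose, where 14.5% were. At an unadjusted p under 0.05 edgeR gave 3, 2 and 9 members in these comparisons, and DESeq2 called 0, 0 and 1.

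High-dose jujube lowered 5 members and raised none, where 9.10% of all genes were called lower and 8.18% higher. The median was -0.08, against 0.00 over all genes and -0.05 over the 404 abundant genes. Of the abundant genes 30.9% were called lower and 5.94% higher, where 6.02% of the members were called lower. Of the members' values 75 of 83 were below 0, but these values share their libraries and are not independent. The libraries of 50 members did not overlap those of the vehicle, against 34.6% of all genes. The summed share was 3.72%, 3.62% and 3.64% at the high dose and 3.68%, 3.71% and 3.73% at the medium dose, all below the 3.77% to 3.80% of vehicle libraries, and the low dose overlapped them. Means fell from low to medium to high dose for 64 of the 83 members, against 24.8% of all genes. Libraries fell in that order without overlap for only 2 members, against 1.61% of all genes. Members share their libraries, so these orders are not independent either. The 5 called were RPS28 of the 40S subunit and RPL27A, RPL24, RPL13A and RPL10 of the 60S subunit. RPS28 had 190.3, 181.2 and 196.8 CPM, against 226.2, 213.8 and 240.2 CPM in vehicle cells (-0.26 ± 0.07, edgeR adjusted p 0.0050). RPL27A fell by 0.17 ± 0.05 and lost its call without jujube replicate 2, and RPL24 fell by 0.16 ± 0.06 and lost its call in 4 of the 6 fits without 1 library. Leaving out vehicle replicate 3 or jujube replicate 3 gave 3 calls and leaving out jujube replicate 2 gave 1. At the medium and low doses no member was called, where 0.364% and 0.0114% of all genes were. At an unadjusted p under 0.05 edgeR gave 8 and 1 members, and DESeq2 called none. Against the low dose, high-dose jujube lowered RPL13A (-0.15 ± 0.04) and RPL27A (-0.14 ± 0.05), where 7.85% were called lower and 7.40% higher. Neither was called without high-dose replicate 2 or 3, and RPL27A was also not called without low-dose replicate 2 or 3.

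Extracts of the same code set were compared by the difference between their responses to dose (high minus low). The response to Coptis exceeded that to jujube for 81 members and fell short of it for 2, where 33.5% of all genes were called higher and 34.9% lower, with a median difference of 0.71. The response to Scutellaria was above that to Pinellia for 3 members, RPL22L1, RPS27L and RPL3, and below it for 14, led by RPS26, where 23.5% and 23.2% of all genes were called. Dried ginger differed from fresh ginger in 1 member, RPL7L1 (0.17 ± 0.04, edgeR adjusted p 0.042), where 0.307% of all genes were called higher and 0.507% lower. That call was lost in 9 of the 12 fits that left out 1 library.

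Other genes of translation were read from lists that, like the members, were chosen with earlier results known. Under high-dose Coptis RACK1, a scaffold protein on the 40S subunit whose symbol lies outside the rule for members, rose by 0.85 ± 0.03. All 21 genes of a list of elongation and initiation factors and other TOP-type mRNAs, such as TPT1 and NPM1, rose, with a median of 0.66. EIF4B, a helper of the helicase eIF4A, rose by 1.32 ± 0.03, EIF4A2, that helicase, by 1.15 ± 0.03, and EEF2, the factor that moves the ribosome along, by 1.04 ± 0.03. Here 37.2% of all genes were called higher and 37.9% lower. Of 78 mitochondrial ribosomal proteins 42 rose and 14 fell, with a median of 0.19; on library totals 20 rose and 39 fell, with a median of -0.12. Of 20 genes of RNA polymerase I and ribosome assembly 15 rose and 4 fell (median 0.52), among them MYC, a transcription factor that drives ribosome synthesis, at 2.12 ± 0.05. Of 15 regulators of mTOR and TOP translation 8 rose and 6 fell: RHEB, the activator of mTOR, rose by 1.52 ± 0.04, and the translation repressor EIF4EBP2 fell by 1.38 ± 0.03. On library totals 17 of these 21 genes rose and 2 fell (median 0.34), 12 of the 20 assembly genes rose and 7 fell (median 0.20), and 5 of the 15 regulators rose and 7 fell (median 0.02).

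Under wortmannin, where 17.3% of all genes were called higher and 19.2% lower, none of the 78 mitochondrial ribosomal proteins rose and 49 fell (median -0.18), and 17 of the 20 assembly genes fell and 1 rose (median -0.21). The assembly genes included DKC1 (-0.36 ± 0.03), BOP1 (-0.39 ± 0.04) and NCL (-0.24 ± 0.03). Of the 21 genes of factors and TOP-type mRNAs 6 rose and 11 fell (median -0.10). Under high-dose Scutellaria, where 30.3% of all genes were called higher and 28.5% lower, 37 mitochondrial ribosomal proteins fell and 3 rose (median -0.09), whereas those 21 genes had 9 rises and 6 falls (median 0.01). MYC rose there by 2.05 ± 0.05, and 9 assembly genes rose and 8 fell. Of 10 p53 targets 6 rose and 2 fell under high-dose Coptis, 5 rose and 2 fell under high-dose Scutellaria, and 5 rose and 2 fell under wortmannin, where the shares of all genes called were those given above for each. On library totals the counts under high-dose Coptis were 5 and 4, and the median was 0.23 where it was 0.54 with TMM. CDKN1A, the cell cycle inhibitor, rose in each, by 1.52 ± 0.05, 1.69 ± 0.05 and 0.37 ± 0.06.

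Members were also split by start site. Under high-dose Coptis all 48 members with a C and 4 pyrimidines exactly at an annotated start rose, with a median of 0.67. Of the 19 tested members with other annotated starts 17 rose and 2 fell, with a median of 0.55. The 19 include RPL3 and RPL10A, whose runs begin 1 base before and 3 bases after the start. They also include the paralogs RPL7L1, RPL26L1 and RPS27L, so the split is by exact position and not by presence of a run. Under wortmannin 2 of the 48 rose and 10 fell (median -0.05), and 2 of the 19 rose and 6 fell (median -0.07). Of all genes 17.3% were called higher and 19.2% lower under wortmannin, so 10 of 48 was near the share of all genes. Of the 404 abundant genes 28.5% were called higher and 42.1% lower there. Under high-dose Coptis 37.2% of all genes were called higher and 37.9% lower. The difference between the 48 and the 19 members was not tested.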

How the data were processed

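Libraries of mRNA were prepared with a directional kit and read for 100 bases at each end, per the labels' protocols. Per the submitters' processing notes FastQC 0.11.9, Trim Galore 0.6.5, STAR 2.7.3a, RSEM 1.3.3 and GRCh38 were used. No source used here gives their settings, the annotation or the strand option. The authors deposited expected counts per gene, of which 90.5% were whole, and these were rounded before testing. Members were found by symbol and protein-coding biotype, with coordinates and lengths from GENCODE v29.

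All 60 libraries entered 1 edgeR 4.0.16 quasi-likelihood fit (R 4.3.3) with TMM scaling, a filter on low counts over the 20 groups and no covariate. P-values were adjusted by the method of Benjamini and Hochberg over 17569 genes. Shares are of library totals, which were 20.2 to 32.8 M, and limits from 3 counts cover counting error only. The named members are, in each direction, the 3 largest changes among called members whose libraries did not overlap, with a list of members of known roles. Other members named, such as RPS15, RPS2, RPL13A and RPL10, and RACK1 were chosen after their values were seen. The list of ribosomal proteins outside the symbol rule is not reported here as a whole. The members and all lists were chosen with earlier results of these data known. Alternatives were DESeq2 1.42.0, its size factors in edgeR, no filter, a replicate block, a trend in exon or transcript length taken out, and each library left out. Fits without 1 library kept the tested genes and the negative binomial spread estimated from all 60 libraries. They are thus not fully free of the library left out. TMM and the quasi-likelihood spread were estimated again. Scaling by library totals and the comparison with abundant genes were added after seeing the data.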

Additional observations from a re-analysis of the deposited data

Results flagged for a closer look

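Differences between the responses to dose (high minus low) of 2 extracts of the same code set were tested in the same edgeR quasi-likelihood fit, and those with an adjusted p under 0.05 stand here. The response to Coptis differed from that to jujube in 83 members. It was higher by 1.81 on the log2 scale for RPL22L1, by 1.05 for RPL3 and by 1.02 for RPL10A. The difference was -0.34 for RPS26 and -0.26 for RPL7L1. Each of these calls held in every alternative run, and on library totals 76 members were higher and 2 lower.

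The response to Scutellaria differed from that to Pinellia in 17 members. The difference was 0.69 for RPL22L1, 0.31 for RPS27L and 0.15 for RPL3, and -0.71 for RPS26, -0.34 for RPL26L1 and -0.32 for RPL7A. The call for RPL3 was lost without Pinellia high-dose replicate 2, Pinellia low-dose replicate 3 or Scutellaria low-dose replicate 3, and the others held in every alternative run. Dried ginger differed from fresh ginger in 1 member, RPL7L1, by 0.17, a call lost in 10 of 19 alternatives.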

How the results depend on the processing

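The counts of called members under Coptis at the high dose were 79 to 81 higher and 2 lower in every alternative run against the vehicle. Of 398 recomputed values of counts and shares, 298 stayed within the range set for them, 94 moved and 6 turned direction. For the named members 807 of 865 recomputed values kept their call, 58 lost it and 0 turned sign. The cause was not tested, except that dropping the filter on low counts adds genes to the fit.

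With no filter on low counts the calls were 42 under wortmannin, 15, 7 and 45 under high, medium and low fresh ginger, 9, 4 and 5 under dried ginger, 24 (6 higher, 18 lower, a turned direction) and 3 under high and medium Pinellia, 56 and 6 under high and medium Scutellaria, 2 under low Coptis, and 35, 3 and 1 under jujube. Between high and low dose they were 71 for fresh ginger, 10 for dried ginger, 17 for Pinellia and 28 for jujube, and for the differences between extracts 26 (dried minus fresh ginger) and 36 (Scutellaria minus Pinellia).

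DESeq2 gave 6 and 1 calls under high and medium fresh ginger, 1 under medium Scutellaria, 1 for Pinellia high against low and 2 for dried minus fresh ginger. Its size factors in edgeR gave 1, 1 and 0 for the last 3. With the exon-length trend removed the calls were 5 under high fresh ginger, 3 under high dried ginger, 4 under high Pinellia (1 higher, 3 lower) and 3 for dried ginger high against low. With the transcript-length trend removed they were 7 and 1 under high and medium fresh ginger, 4 under high dried ginger, 5 under high Pinellia (2 higher, 3 lower), 10 under high jujube, and 5, 3 and 4 for dried ginger, Pinellia and jujube high against low. On library totals they were 5 under high Pinellia, 10 under medium Coptis, 2 under high jujube, and 2, 1 and 1 for dried ginger, Pinellia and jujube high against low.

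The fit with the replicate block gave 1 call under medium fresh ginger, 2 under high dried ginger, 1 under medium Scutellaria, 3 for dried ginger high against low and 3 for dried minus fresh ginger. Libraries with the same number had a mean residual correlation of 0.00303, against -0.00152 for others, and 26 of 60 correlated best with their own number. In 0 of 28 comparisons was every pair over 0.1. The means run over all groups, and the last count asks for every pair. These values therefore do not decide whether some libraries with the same number share more than that number.

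Leaving out each library gave 14 to 19 calls for wortmannin, 2 to 5, 0 to 1 and 5 to 22 for high, medium and low fresh ginger, 0 to 7 for high dried ginger (1 higher without its replicate 3), 0 to 7 for high Pinellia (1 and 7 lower without vehicle replicate 2 and Pinellia replicate 1), 18 to 38, 0 to 1 and 0 to 1 for high, medium and low Scutellaria and 1 to 7 for high jujube. Between high and low dose it gave 15 to 43 for fresh ginger, 0 to 8 for dried ginger, 0 to 5 for Pinellia, 16 to 36 for Scutellaria and 0 to 4 for jujube, and 0 to 5 and 14 to 27 for the differences dried minus fresh ginger and Scutellaria minus Pinellia. At 20.2 to 32.8 M counts per library, RPL3L, RPL10L and RPS4Y2 were too low to test.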
